A study of Mus musculus with 2 samples.

Results

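The regions described here are the long footprints of mouse spleen chromatin, meaning every deposited DNase footprint that spans 30 bases or more. DNase-seq cuts nuclei with DNase I and sequences the cut ends, and a footprint is a short stretch inside open chromatin that was cut less than its flanks. Replicate 1 held 13765 such footprints among 191945 (7.17%), and replicate 2 held 9338 among 125693 (7.43%). A long footprint that overlapped a long footprint of the other library by at least 50% of the shorter one was counted as shared, which gave 7286 in replicate 1 and 7285 in replicate 2.

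The study measured 1 group with 2 replicates and has no contrast between conditions. Both libraries came from whole spleen of male B6CASTF1/J mice, an F1 cross of a C57BL/6J and a CAST/EiJ parent strain, at 14 days of age. Replicate 1 came from 3 males and replicate 2 from 1 male, per the labels, and both carry 1 donor entry, so the spread between them mixes animals with library making. The tissue is a mixture: at day 14 the mouse spleen makes red cells and also holds B cells, T cells and macrophages, and a footprint is a sum over them. Comparisons are therefore given as both libraries' values or as mean ± SD (n = 2), with no test. The members were selected on their measured length, so length and the values that follow from the same cuts are descriptions.

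A protein bound to DNA shields its site from DNase I, and the length of the shielded stretch follows the contact the protein makes. Most transcription factors touch a short motif. A few have a wide contact surface: CTCF, the insulator protein that anchors chromatin loops, reads DNA with an array of zinc fingers, REST and ZNF143 are large zinc finger proteins as well, and TFIIIC holds the internal B box of tRNA genes for RNA polymerase III. Neighbouring proteins that sit side by side can also give 1 joined footprint.

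The following 4 long footprints are examples of the CTCF motif without and with a second block of letters upstream. The consensus searched was CCA, 2 free bases, AG, 2 free bases and GGC, on both strands, and it is in capitals. In the longer pair a second block of capitals marks an upstream element with the letters TGCANTNCC. The whole element was in only 25.2% and 28.5% of CTCF-centred footprints of 40 to 46 bases in replicates 1 and 2. Most of that class lacked it, so the longer pair does not stand for the class. The examples were chosen after their values were seen, as the shared members of their class with the highest host peaks over 1000 bases from any start site. All letters here and below are the C57BL/6J reference of build mm10 (GRCm38.p6), so the CAST/EiJ allele can differ, and each is printed 5′ to 3′ on the strand named.
CTCF site near Ptma, without upstream element (chr1:86525462-86525492, minus strand): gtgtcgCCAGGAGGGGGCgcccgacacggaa
CTCF site near Rassf7, without upstream element (chr7:141221931-141221962, minus strand): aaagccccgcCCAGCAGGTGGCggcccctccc
CTCF site near Ptma, with upstream element (chr1:86501760-86501804, plus strand): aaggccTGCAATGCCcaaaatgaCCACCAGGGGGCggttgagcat
CTCF site near Slc25a25, with upstream element (chr2:32487289-32487331, minus strand): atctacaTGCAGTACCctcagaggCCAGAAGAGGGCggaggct
The footprint 1249 bases upstream of Ptma was 31 bases in replicate 1 and 33 bases in replicate 2, and the one 24944 bases upstream of the same gene was 45 bases in both libraries. Both lie outside any gene. The Rassf7 site, 4309 bases downstream of that gene's start and outside any gene, measured 32 and 31 bases in replicates 1 and 2, and the Slc25a25 site, 35865 bases upstream, 43 and 45 bases. The Slc25a25 site was the only 1 of the 4 in repeat sequence, which made up 76.7% of it.

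A further set shows other motifs of the list, again in capitals, at the shared long footprint with the highest host peak for that motif. These are the CREB/ATF element, the NFY box, the BANP motif, the REST element, the left part of the ZNF143 motif, the NF-kB motif and the B box of a tRNA-Ser gene (n-TStga3). The Ube2h site also held a GC box (GGGCGGGG), which is left in lower case.
Ube2h promoter (chr6:30304550-30304591, plus strand): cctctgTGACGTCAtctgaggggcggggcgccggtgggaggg
Cdkn2d promoter (chr9:21291397-21291446, plus strand): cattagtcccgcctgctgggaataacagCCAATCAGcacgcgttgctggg
Ncapg promoter (chr5:45669853-45669896, plus strand): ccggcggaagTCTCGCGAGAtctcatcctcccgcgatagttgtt
Gad1 intron (chr2:70559694-70559725, minus strand): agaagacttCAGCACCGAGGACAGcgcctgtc
Nup153 promoter (chr13:46728092-46728134, minus strand): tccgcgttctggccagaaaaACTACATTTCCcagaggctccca
Nfkbia promoter (chr12:55491943-55491986, plus strand): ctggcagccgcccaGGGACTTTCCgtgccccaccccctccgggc
tRNA-Ser gene (chr10:63429474-63429514, minus strand): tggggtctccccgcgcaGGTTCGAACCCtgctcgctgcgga
The 5 promoter sites lie within 200 bases upstream of a protein-coding start. The REST element lies in an intron of Gad1, which encodes an enzyme that makes the transmitter GABA. Nfkbia encodes the inhibitor of NF-kB. The last set shows a promoter with a GC box (GGGCGGGG, the motif of the SP and KLF family). It also shows the longest non-repeat promoter footprint among shared ones, by mean length, and 2 blood genes with a shared long footprint. Zfpm1 encodes the GATA cofactor FOG1 and Lck a T cell kinase.
Mplkip promoter (chr13:17694980-17695024, minus strand): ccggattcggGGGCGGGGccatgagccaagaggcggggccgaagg
Psmb3 promoter (chr11:97703300-97703368, plus strand): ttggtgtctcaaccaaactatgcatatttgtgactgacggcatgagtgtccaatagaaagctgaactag
Zfpm1 promoter (chr8:122282059-122282092, plus strand): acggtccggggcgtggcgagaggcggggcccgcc
Lck promoter (chr4:129556599-129556635, plus strand): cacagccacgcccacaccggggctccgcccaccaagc
Capitals in this set mark the motif found in the central 30 bases (a GC box in Mplkip), and Psmb3, Zfpm1 and Lck held none of the 30 motifs there. In Psmb3, which encodes a proteasome subunit, the footprint was 69 bases in replicate 1 and 62 bases in replicate 2.

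Long footprints were the tail of a steep length distribution. The median length of the long ones was 35 bases in replicate 1 and 34 bases in replicate 2, against 10 and 11 bases over all footprints, and the longest spanned 81 and 76 bases. They held 19.2% of all footprint bases in each library. The count did not fall evenly with length: it levelled at 27 to 29 bases and again at 37 to 42 bases in both libraries. A larger break lay among the shorter footprints. In replicate 1 there were 8955 at 12 bases, 10727 at 13 bases and 3691 at 14 bases, and in replicate 2 5791, 7047 and 2550. Just inside the limit, at 30 to 31 bases, there were 3016 footprints in replicate 1 and 2414 in replicate 2, and just outside it, at 28 to 29 bases, 3763 and 2758. The CTCF-centred footprints had a median host peak height of 1.69 and 1.77 just inside it and 1.55 and 1.59 just outside it in replicates 1 and 2.

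**Figure D1:**
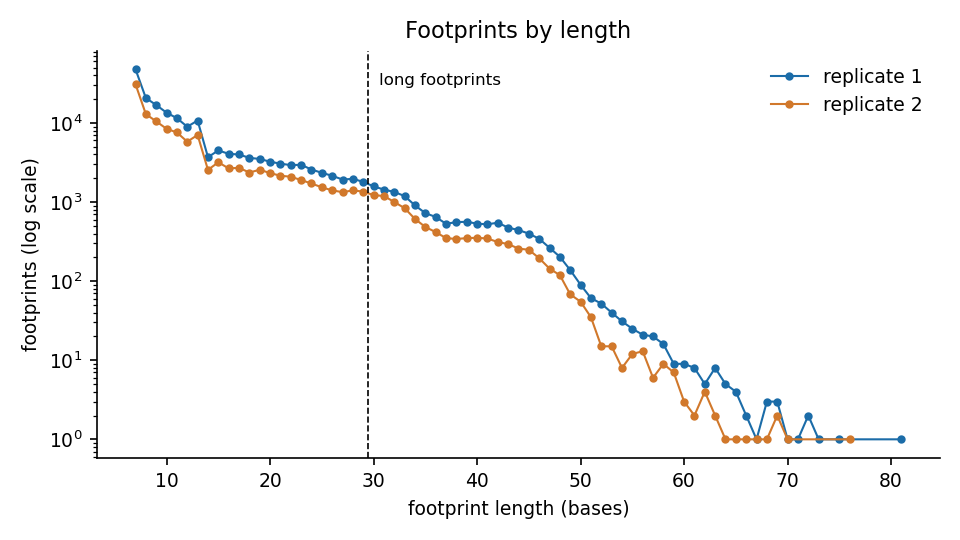
Number of footprints (log scale) at each length in bases, for both libraries, with a dashed line at the lower limit of long footprints. Counts fall from the shortest length of 7 bases, with a sharp drop from 13 to 14 bases and shelves near 28 and 40 bases, to the longest at 81 bases in replicate 1 and 76 bases in replicate 2.

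Replicate 1 had the longer list. Of its long footprints 52.9% were shared, against 78.0% of those in replicate 2. Nearly all long footprints met some footprint in the other library, 93.9% in replicate 1 and 99.6% in replicate 2, compared with 34.6% and 58.8% of shorter footprints. Footprints of 20 to 29 bases lay near the long ones, at 82.6% and 97.2%. A longer footprint covers more bases and so can meet a footprint of the other library more easily. These shares therefore depend on length, on which the members were selected, and do not compare how well long and shorter footprints were reproduced. The part of length in this contrast was not tested. For the unshared long footprints any overlap, down to 1 base, was counted as touching. Of the 6479 in replicate 1, 57.0% touched a footprint of 20 to 29 bases as the longest partner and 12.7% touched none. In replicate 2 these shares were 78.4% and 1.85% of 2053. More than 1 partner was touched by 38.1% and 36.9% of the unshared ones. Whether these are 1 stretch split in the other library was not tested.

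Shared long footprints had closely matching ends. In the 7286 pairs the median difference in length was 2 bases, both ends lay within 2 bases in 59.1% and both ends were identical in 11.7%. The footprint was longer in replicate 1 in 55.3% of pairs and longer in replicate 2 in 27.0%. The host peak, meaning the peak of the smaller deposited list that holds the footprint, was higher at shared than at unshared members, at 5.30 against 4.45 in replicate 1 and 4.17 against 2.59 in replicate 2. Peak height is the signal deposited by the authors; no source used here gives its scale. Heights are compared within a library, except that sites named for a high host peak were ranked by the mean of both libraries' heights.

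Long footprints lay nearer the middle of peaks than shorter ones taken as a whole, and more often in strict peaks. In replicate 1, 89.8% of them were inside a strict peak, against 67.6% of shorter footprints, and in replicate 2 the shares were 89.6% and 64.2%. The median host peak height was 4.91 for long and 2.27 for shorter footprints in replicate 1, and 3.81 for long and 2.77 for shorter ones in replicate 2. Footprints of 20 to 29 bases were also in higher peaks than the rest of the shorter ones, at 4.54 and 4.47, which in replicate 2 is above the long ones. Their share inside strict peaks was 84.2% and 82.4%. Height and footprints are made from the same cuts, and the part of depth in this difference was not tested. The centre of a long footprint lay a median of 16.5 bases (replicate 1) and 13.5 bases (replicate 2) from the peak's centre, compared with 46 and 50 bases for shorter ones and 28 and 31 bases for those of 20 to 29 bases. Host peaks were equally wide in replicate 1, at 200 bases for both kinds, and 180 bases for long against 200 bases for shorter ones in replicate 2.

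The share of peaks that held a long footprint climbed with height. Over all strict peaks it was 21.98% in replicate 1 and 25.3% in replicate 2. With peaks cut by height into 5 bins of equal number, the share was 2.68% and 4.26% in the lowest bin and 50.3% and 46.3% in the highest. The share of peaks with any footprint went up less steeply, with 73.4% and 62.4% in the lowest bin and 99.8% in the highest bin of both libraries. Most peaks with a long footprint held only 1, while 196 in replicate 1 and 109 in replicate 2 held 3 or more.

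The peaks with most shared long footprints were promoters. A 460-base peak 161 bases upstream of Crocc, which encodes the ciliary rootlet protein rootletin, held 5 of them. A 240-base peak near Hexim2, an inhibitor of the elongation factor P-TEFb, held 4. Peaks at Cdkn2d (a cell cycle inhibitor), Gpr155 and Fbh1 held 3 each. By gene, with the body widened by 10 kb, the most were in Gm20388 with 52, but that annotation spans 4435 kb and covers other genes. Fgfr2 had 11 in an annotated span of 2961 kb and Camta1 9 in 945 kb, and these counts are not scaled for span. Trim7 had 9 within 26.1 kb plus flanks, next to a cluster of tRNA genes. The 9 at Gm10720 lay in a block of repeat sequence at the start of chromosome 9.

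At start sites long footprints sat upstream. Of the long footprints inside strict peaks, 51.9% in replicate 1 and 50.6% in replicate 2 were within 1000 bases of a protein-coding start site, against 48.5% and 65.3% of shorter ones, so the direction differed between the libraries. Footprints of 20 to 29 bases were within 1000 bases of one in 58.5% and 67.5% of cases, above the long ones in both libraries. Within these regions, 50.9% and 50.6% of long footprints had their centre between 100 bases upstream and the start itself, compared with 37.1% and 40.1% of shorter ones and 46.4% and 48.8% of those of 20 to 29 bases. Only 22.5% and 21.9% of long ones were downstream of the start, against 36.7% and 35.8% of shorter ones. The gap widened with length: 59.6% and 58.3% of footprints of 47 bases or more fell in the 100 bases upstream and 15.3% and 16.7% downstream.

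**Figure D2:**
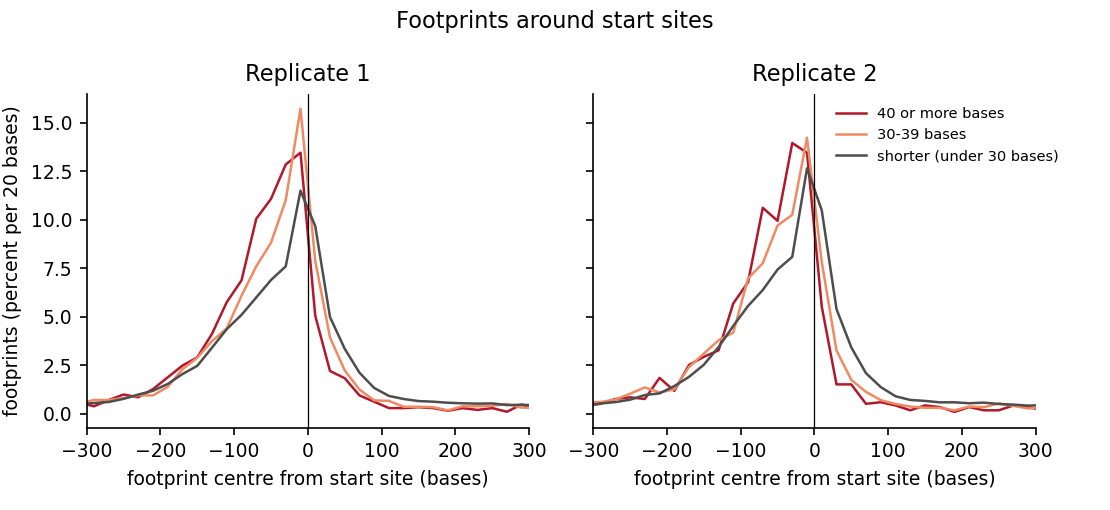
Distance of footprint centres from the nearest protein-coding start site (bases; negative is upstream), as percent of footprints at start sites per 20 bases, for footprints of 40 bases or more, of 30 to 39 bases and shorter ones, with 1 panel a library. In both panels the 2 long classes lie above the shorter one in the 80 bases upstream of the start and below it in the 80 bases downstream.

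GC content was higher in long than in shorter footprints taken as a whole, but not than in those of 20 to 29 bases. In long footprints the central 30 bases were 65.2% GC in replicate 1 and 65.5% in replicate 2, against 61.0% and 64.4% for shorter footprints, and 58.9% and 62.6% for all 30-base tiles of the strict peaks. Footprints of 20 to 29 bases had 65.8% and 67.6%, above the long ones in both libraries. Footprints of 47 bases or more had 63.7% and 61.8%, less than those of 35 to 39 bases with 66.6% and 66.8%.

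The central 30 bases were then searched on both strands for 30 consensus motifs, so that long footprints, shorter footprints and tiles were read over windows of the same size. A match is a description of letters and does not show that the factor was bound. At least 1 motif was present in 40.1% and 40.7% of long footprints in replicates 1 and 2, compared with 17.3% and 18.99% of shorter ones and 10.8% and 11.7% of tiles. Footprints of 20 to 29 bases came close to the long ones, at 34.8% and 37.2%, and those of 28 to 29 bases closer, at 38.9% and 40.4%. The remaining 59.9% and 59.3% of long footprints held none. Of the 30 motifs, 10 were more frequent in long than in shorter footprints in both libraries, 14 less frequent in both, and 6 differed in direction. These counts go by the shares alone and not by their intervals.

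CTCF led the list. Its consensus was in 20.4% of long footprints of replicate 1 (2525 of 12362, 95% Wilson interval 19.7 to 21.1) and 22.6% of replicate 2 (1888 of 8369, 21.7 to 23.5). Shorter footprints held it in 2.86% and 2.52%, and tiles in 1.37% and 1.36%. The high share did not begin at the limit of 30 bases: footprints of 28 to 29 bases held the consensus in 22.3% and 24.3%, and those of 20 to 29 bases in 10.8% and 10.2%. As means this was 21.5% ± 1.51 for long, 2.69% ± 0.24 for shorter footprints and 1.37% ± 0.00528 for tiles (SD, n = 2). The gap between the long and all shorter footprints was far larger than the SD. Intervals and floors given here cover counting error only. Away from start sites, over 1000 bases from any, 37.2% and 39.7% of long footprints held the consensus, compared with 4.85% and 5.95% of shorter ones. At start sites the shares were 4.91% and 5.88% of long and 0.754% and 0.7% of shorter footprints.

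The B box of RNA polymerase III genes (GGTTCGA, 2 free bases, CC) showed the highest ratio. It was in 0.76% and 1.02% of long footprints, against 0.0432% and 0.0589% of shorter ones and 0.0334% and 0.0508% of tiles. Long footprints thus held it 17.6 and 17.2 times as often as shorter ones in replicates 1 and 2.

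Several motifs common at promoters had higher shares in long than in all shorter footprints. The GC box (GGGCGGGG) was in 8.95% and 8.41% of long footprints, compared with 4.38% and 6.43% of shorter ones and 2.19% and 3.12% of tiles. The motif of NRF1, an activator of genes for mitochondria, searched as GCGCA and GCGC with 1 free base between, was in 2.91% and 2.33% of long against 1.04% and 1.85% of shorter footprints, and in 0.43% and 0.686% of tiles. The CREB/ATF element TGACGTCA was in 1.12% and 1.18% of long against 0.346% and 0.517% of shorter footprints and 0.165% and 0.226% of tiles. YY1 (AANATGGC), NFY (CCAATNAG), the palindromic BANP motif, the REST element and the left part of the ZNF143 motif were also higher in long footprints in both libraries. Their mean long shares were 1.24%, 1.07%, 0.249%, 0.117% and 0.539%, against 0.887%, 0.847%, 0.118%, 0.0368% and 0.275% in shorter ones and 0.63%, 0.616%, 0.0466%, 0.0154% and 0.2% in tiles. Footprints of 20 to 29 bases held several of these more often than the long ones: the GC box in 11.1% and 13.5%, NRF1 in 3.63% and 5.23% and BANP in 0.4% and 0.472%. The CREB/ATF element was in 1.11% and 1.64% of them. The REST element was in 0.0952% and 0.155% of them, and in 0.271% and 0.545% of those of 28 to 29 bases. In long footprints it rested on 17 and 8 members, or 0.138% and 0.0956%. Of the 151 and 105 long footprints with YY1, 57 and 37 also held the CTCF consensus, and the share without those was not computed. Other promoter motifs were less frequent in long than in shorter footprints. ETS had 1.34% and 1.15% in long against 1.58% and 1.99% in shorter ones, and the USF E-box 0.898% and 0.86% against 1.07% and 1.1%. E2F was in 16 and 8 long footprints, or 0.129% and 0.0956%, against 0.143% and 0.182% of shorter ones. The Wilson intervals reach the share of shorter footprints for E2F in both libraries and for the USF E-box in replicate 1.

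Several motifs of blood cell factors had lower shares in long than in shorter footprints. The GATA motif AGATAAG was in 0.105% and 0.108% of long footprints, 13 and 9 members, compared with 0.508% and 0.225% of shorter footprints and 0.422% and 0.236% of tiles. The joint motif of TAL1 and GATA, a mark of red cell enhancers (CTG and AGATAA with 7 free bases between), was in 0 of 12362 and 0 of 8369, against 0.0656% and 0.0174% of shorter footprints. A floor of 3 members would be a share of 0.0243% and 0.0358%, and the upper Wilson limits were 0.0311% and 0.0459%. In replicate 2 a difference was therefore not detectable at this depth. PU.1 (GAGGAAGT), a factor of myeloid and B cells, was in 0.113% and 0.119% of long against 0.516% and 0.226% of shorter ones and 0.526% and 0.29% of tiles. At 20 to 29 bases the low shares were already present in replicate 2, with GATA in 0.0776% and PU.1 in 0.0564%, while replicate 1 had 0.281% and 0.152%. IRF was in 11 and 3 long footprints, or 0.089% and 0.0358%, against 0.261% and 0.159% of shorter ones. The shares of AP-1 (TGANTCA), OCT (ATGCAAAT), EBF, STAT and NF-kB were lower as well, but in replicate 2 their Wilson intervals reach the share of shorter footprints. STAT rests on 7 and 6 members and NF-kB on 3 and 2, and for both the same holds in replicate 1. RUNX (TGTGGTT) was lower in replicate 1, at 0.485% against 0.728%, and higher in replicate 2, at 0.478% against 0.372%. Tiles held it in 0.644% and 0.398%. Of its 60 and 40 long members, 21 and 16 also held the CTCF consensus.

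**Figure D3:**
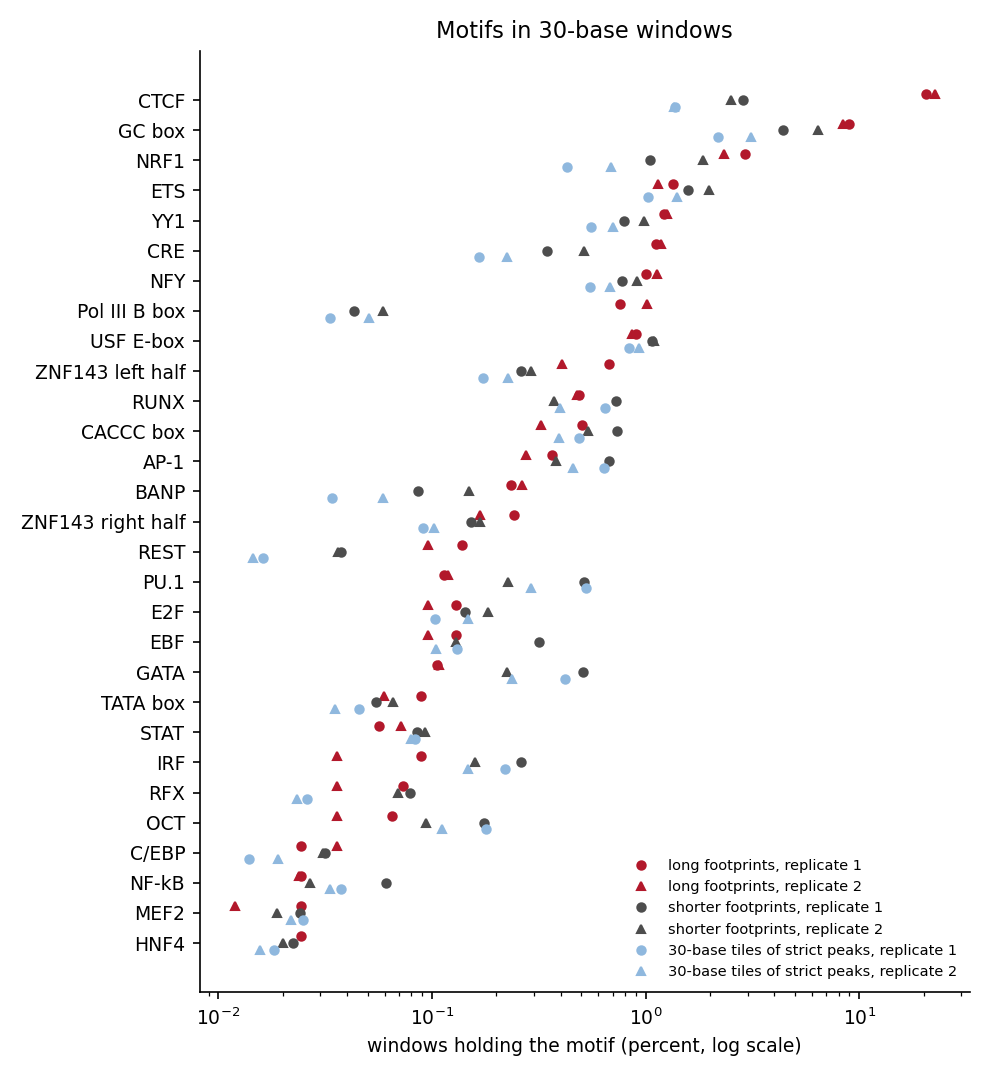
Percent of 30-base windows holding each of 29 motifs (log scale), in long footprints, shorter footprints and tiles of the strict peaks, with circles for replicate 1 and triangles for replicate 2; values of 0 are not drawn. CTCF leads at 20.4% and 22.6% of long footprints, and the B box shows the widest gap to shorter ones.

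Long footprints with different motifs lay in different places. Those with CTCF were at start sites in 12.5% of cases in replicate 1 and 13.2% in replicate 2, and their median host peak height was 1.89 and 1.93. Those with a GC box were at start sites in 92.5% and 93.5%, with median heights of 11.4 and 8.18. NRF1 members reached 96.4% and 95.4%, with heights of 13.0 and 8.43, and BANP members 96.6% and 100%. B box members were at start sites of protein-coding genes in 16.0% and 18.8%. Members with none of the list were at start sites in 54.8% and 54.6%, with heights of 5.56 and 4.42. Repeat sequence covered more than 50% of the window in 22.7% and 21.1% of members with CTCF. With a GC box the shares were 10.4% and 8.52%, and with none of the list 6.5% and 5.04%.

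Members with 2 or more motifs were few, at 2.04% and 1.89% of long footprints, compared with 0.621% and 0.656% of shorter ones. The most common pair was CTCF with YY1, in 57 and 37 members, followed by NRF1 with a GC box in 31 and 20. Both the CTCF and the YY1 consensus end in GGC, so their letters can overlap in 1 site.

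The CTCF share had 2 maxima along length. In replicate 1 it was 27.2% at 32 bases, 9.03% at 37 bases and 27.2% again at 46 bases. In replicate 2 it was 27.9% at 32 bases, 10.5% at 38 bases and 32.5% at 44 bases. The GC box ran opposite, with 4.44% and 6.24% at 30 bases, 15.1% at 38 bases in replicate 1 and 16.4% at 39 bases in replicate 2. The B box had its highest shares, 2.84% at 39 bases in replicate 1 and 3.09% at 35 bases in replicate 2, and was at or under 0.532% from 43 bases on. NRF1 was at or under 1.2% from 42 bases on in both libraries.

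**Figure D4:**
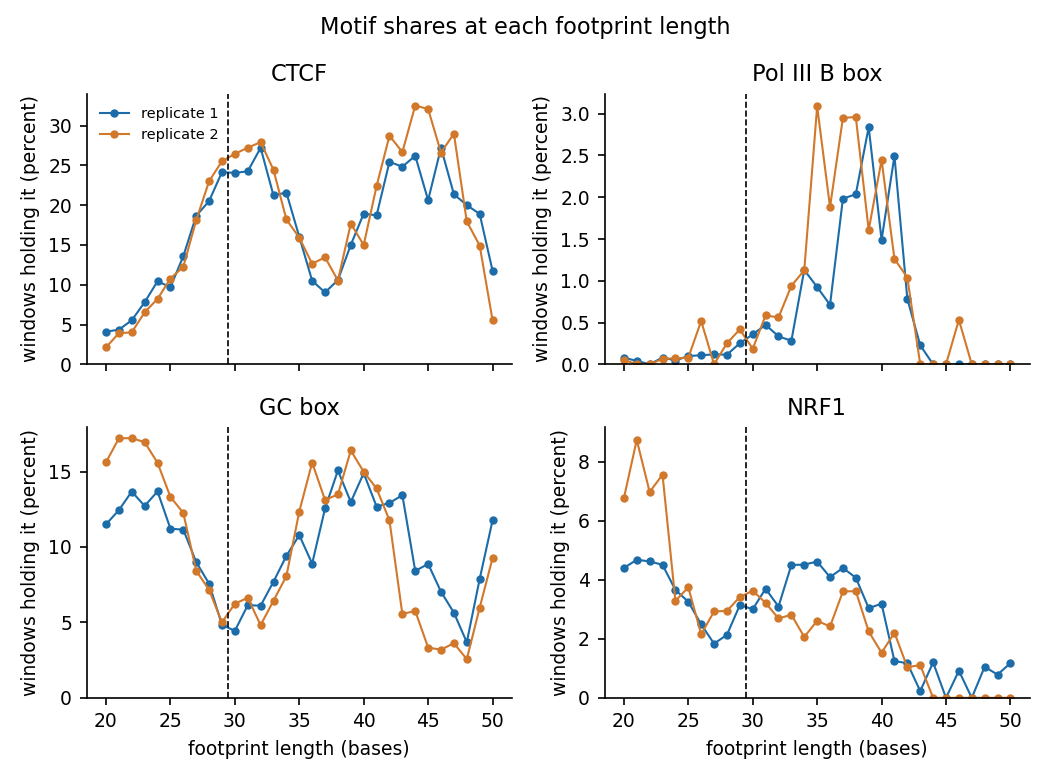
Percent of 30-base windows holding the CTCF, B box, GC box and NRF1 motifs at each footprint length from 20 to 50 bases, for both libraries, with a dashed line at the lower limit of long footprints. CTCF has maxima near 32 and 45 bases, between which the B box has its highest shares and the GC box rises again.

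The 2 CTCF lengths differed on 1 side of the motif. Footprints that held the centre of a match were oriented by it, which gave 2598 long ones in replicate 1 and 1921 in replicate 2. In the class of 30 to 34 bases (1389 and 1102) the ends lay a median of 12 bases upstream of the match centre in both libraries, and 19 and 20 bases downstream. In the class of 40 to 46 bases (714 and 488) they lay 28 and 27 bases upstream and 16 bases downstream in both. The added length was therefore upstream. Over all long CTCF-centred footprints 42.0% and 36.9% reached more than 20 bases upstream.

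The upstream stretch had letters of its own. In the class of 40 to 46 bases, the second base of the TGCANTNCC element, 16 bases before the match, was G in 80.1% and 83.0% of footprints, compared with 35.5% and 35.8% in the class of 30 to 34 bases. The T at 12 bases before the match was present in 82.4% and 85.0%, compared with 42.6% and 39.8%. The whole element, placed 17 bases before the match within 1 base, was in 25.2% and 28.5% of the class of 40 to 46 bases and in 2.66% and 1.81% of the class of 30 to 34 bases. It was picked out of these same footprints, so the shares describe them. In all 30-base tiles of the strict peaks, with no placement, the element occurred in 0.583% and 0.547%.

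CTCF-centred footprints with the element were longer. The element was picked out of the longer of these footprints, so its link to length, here and outside repeats below, is only a description. Counting all of 20 bases or more, the 387 with it in replicate 1 had a median length of 40 bases, against 30 bases for the 4516 without it, and in replicate 2 the 267 with it had 42 bases against 30 bases for 3131. They were long in 79.8% and 86.5% of cases with it, and in 50.7% and 54.0% without it. They reached more than 20 bases upstream in 74.4% and 79.0% with it, and in 18.5% and 16.4% without it. The Ptma and Slc25a25 sites printed above show the spacing.

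**Figure D5:**
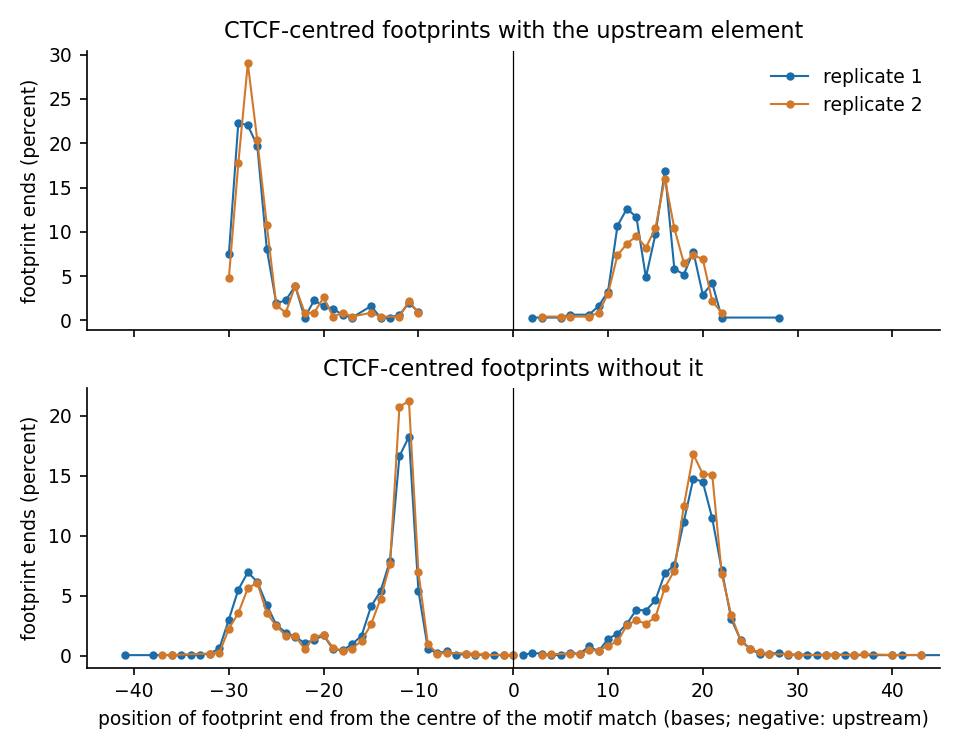
Ends of long CTCF-centred footprints, as percent of ends per base from the centre of the oriented match (negative is upstream), with the upstream element (upper panel) and without it (lower panel), for both libraries. With the element most upstream ends lie 26 to 30 bases away, and without it most lie 10 to 15 bases away with a smaller group near 28.

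Repeat sequence moved with the element. The match lay in repeat sequence in 76.0% and 70.4% of footprints with the element and in 14.6% and 11.5% without it. Outside repeats the 93 and 79 footprints with the element had median lengths of 40 and 41 bases, compared with 30 bases in both libraries without it, and 71.0% and 69.6% reached more than 20 bases upstream, against 17.2% and 14.3%. Rodent SINE elements of the B2 family are known to carry CTCF sites; which repeat families these are was not analysed here.

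The B box members were tRNA genes. In replicate 1, 93 of 94 long footprints with a B box, and in replicate 2, 84 of 85, were centred in a tRNA gene of the RefSeq annotation for the same build. Of 408 such genes, 126 held a long footprint in replicate 1, 112 in replicate 2 and 105 in both. These footprints had a median length of 37 and 36 bases. They started a median of 40 bases into the gene in both libraries and ended 2.5 and 2 bases past its end, and in all of them the centre lay in the 3′ part of the gene body. The 50 bases around their centres, which reach past most footprint ends, held a B box in 80.2% and 79.5% of cases, and 73.0% and 70.5% of the footprints passed the end of the gene. The printed tRNA-Ser site lies on the minus strand of chromosome 10 near the start of Ctnna3 and spans 41 and 36 bases. Of all long footprints, 0.915% and 1.2% lay in tRNA genes, compared with 0.111% and 0.165% of shorter ones.

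The highest host peaks with shared long footprints were mostly at promoters of broadly expressed genes. At Dynlt1b, a dynein light chain, the host peak was 68.9 high in replicate 1 and 39.2 in replicate 2, and it held a pair of them, 30 bases upstream and 42 bases downstream of the start. Mplkip, with 45 bases in both libraries, had a host peak of 40.1 and 23.4, and it lies 190 bases upstream of the start. Nup107 (a nuclear pore protein), Dnpep (an aminopeptidase), Cacybp and Ing2 were also among these 10, with host peaks of 34.9 to 40.4 in replicate 1 and 19.5 to 26.2 in replicate 2. Dnpep and Cacybp each had a pair of shared long footprints in 1 peak. The remaining one of these 10 was in the repeat block of chromosome 9 near Gm10719, with a host peak of 24.3 in replicate 1 and 66.7 in replicate 2.

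Of the 5 longest shared members, 3 were repeat sequence. A site of 75 bases in replicate 1 and 70 bases in replicate 2, 380406 bases from Tlr4, is a short tandem repeat, and sites of 70 and 68 bases near Gm10718 and Gm10717 lie in the chromosome 9 block. That block, between positions 3002099 and 3029855 of chromosome 9, held 13 shared long footprints. A site in an intron of Peak1, of 67 and 69 bases, and the Psmb3 promoter were outside repeats. Among all footprints of 60 bases or more, 6 of 55 in replicate 1 (10.9%) and 5 of 20 in replicate 2 (25%) were over 50% repeat. Over all shared members 9.63% were more than 50% repeat. Reads of near-identical copies cannot be placed with certainty, so counts in these repeats are uncertain.

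Promoters of cell type genes were counted on 7 lists. Strict peaks stood at the start sites of 18 of 20 erythroid genes in replicate 1 and 17 in replicate 2, 15 and 11 of 16 B cell genes, 7 and 4 of 15 T cell genes, 8 and 4 of 15 macrophage genes, 6 and 4 of 12 megakaryocyte genes, and 1 and 0 of 12 liver genes. Over all 21911 protein-coding genes, 12431 had such a peak in replicate 1 and 11266 in replicate 2. Among protein-coding genes with such a peak in both libraries, 29.7% had a shared long footprint there. By library, 45.2% of genes with a peak had a long one in replicate 1 and 34.6% in replicate 2. Of the 12 housekeeping genes, 12 had a long footprint in replicate 1, 8 in replicate 2 and 6 a shared one, among them Gapdh, Rplp0, Ppia, B2m and Ywhaz.

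Among blood genes with a peak in both libraries a shared long footprint was found at 2 of 17 erythroid genes (Zfpm1 among them), 1 of 11 B cell genes (Cd74, the invariant chain of MHC class II), 1 of 3 T cell genes (Lck), 0 of 4 macrophage genes and 0 of 4 megakaryocyte genes. In 1 library only, long footprints were at Tfrc, Slc4a1, Cd79b, Cr2, Itgb3 and Vwf in replicate 1 and at Nfe2 and Pax5 in replicate 2. The lists are short and were not tested against the background share.

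Single members show the range of these promoters. At Rplp0, a ribosomal protein gene, a CTCF match lay 168 bases upstream in a footprint of 59 bases in replicate 1 and 33 bases in replicate 2. The highest host peak with a CTCF match was at Fxr2, 179 bases upstream, at 31.7 and 19.3, with footprints of 49 and 45 bases. At Zfpm1 the footprint 65 bases upstream was 34 and 33 bases long, in a host peak of 28.6 and 16.3. At Lck the footprint of 37 and 35 bases was in a peak of 6.24 and 5.6. The highest host peak with a GATA motif was upstream of Ap3d1, at 18.5 and 9.43, with footprints of 46 and 44 bases, and the one with a PU.1 motif was at Nadk, at 12.9 and 8.9.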

How the data were processed

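DNase-seq of 2 whole-spleen libraries was deposited as peak lists, footprints and false discovery rates, 1 set a library, on mm10 per the labels. The aligner, both callers, their versions and the read depth are stated nowhere in these sources. Peak files as deposited hold the authors' signal value per peak, and of the 2 peak lists of a library the one with fewer total bases was used (the strict list, 48286 peaks in replicate 1 and 28837 in replicate 2). The footprint files give intervals with 1 constant score.

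From these, footprints of 30 bases or more were taken. Motifs were searched by consensus, on both strands, in the 30 bases centred on each footprint inside a strict peak and in 30-base tiles of those peaks, in the GRCm38.p6 reference. Start sites came from GENCODE M21 protein-coding genes and tRNA genes from RefSeq. Repeat means soft-masked sequence, over 50% of a footprint or match. No test was run, since there is 1 group of 2 libraries. Python 3.11.15 with numpy 2.4.6, pandas 2.3.3 and scipy 1.17.1 was used, and the steps were tested on simulated sequence. Sites were named by rule: the 10 highest host peaks and 5 longest among shared members, the highest per motif, up to 2 genes per list, and the 5 peaks and 5 genes with most. The 4 CTCF examples, the upstream element and the word search were added after values were seen. Members, motifs and lists were chosen with earlier results of these data known. The alternatives tried were other lengths, overlaps, windows, distances, peak lists and leaving out each replicate. Some named sites are not reported here.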

Additional observations from a re-analysis of the deposited data

How the results depend on the processing

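Of 35 alternatives, 11 moved a value by less than the SD of the 2 libraries and 24 by more. With 25 bases or more, 12.7% of footprints were long, 88.0% of long ones were in strict peaks, 52.8% at start sites, GC was 65.9%, 19.8% held the CTCF motif and 39.2% any motif. With 35 bases or more these values were 3.68%, 91.2%, 55.7%, 65.0%, 18.4% and 39.1%, and the median height was 5.43. The larger peak list gave 92.8% in peaks and 49.9% at start sites, and 500 bases in place of 1000 gave 47.6%. The footprint as deposited gave 64.6% GC and any motif in 44.0%, and a window of 50 bases gave 46.6%. Over 1000 bases from a start site 38.4% held CTCF. Alternatives chosen after seeing the data were a consensus with base 3 left free (27.5% with CTCF, against 4.34% and 4.2% of shorter footprints in replicates 1 and 2), and leaving out repeat sequence, which gave 18.7% with CTCF, 53.5% at start sites and 32.1% of CTCF-centred members reaching over 20 bases upstream.

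With 2 libraries, leaving out 1 only returns the value of the other, so the ranges here are no further check. Leaving out each replicate gave ranges of 7.17 to 7.43% long, 52.9 to 78.0% shared, 89.6 to 89.8% in strict peaks, 50.6 to 51.9% at start sites, 3.81 to 4.91 in height, 180 to 200 bases in width, 65.2 to 65.5% GC, 20.4 to 22.6% with CTCF, 40.1 to 40.7% with any motif and 36.9 to 42.0% reaching upstream. In 1 library alone 6 to 10 blood genes and 8 to 12 housekeeping genes had a long footprint. No paired analysis was possible because there is 1 group only. The read depth is unknown, so a footprint missing from one library was not detectable at its depth, which does not show it absent. With 2 libraries no outlier could be sought.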

Other observations

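Long footprints with none of the 30 motifs were searched for 8-base words, after the values above were seen. Among 1407 words found in at least 20 such windows of replicate 1, those with the highest ratio to shorter footprints without a motif were mostly variants of 1 sequence. CCACTAGA was in 1.64% of 7399 long windows of replicate 1 and 1.29% of 4962 of replicate 2, against 0.19% and 0.127% of shorter ones. CTAGTGGC, its neighbour on the other strand, was in 1.77% and 1.57%, against 0.218% and 0.174%. ACTAGATG had the highest ratio in replicate 1, with 0.933% and 0.524%, against 0.0914% and 0.0661%.

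These words share ACTAG on one strand. With the C before it, CACTAG was in 6.07% and 5.26% of long windows without a motif, against 1.25% and 0.982% of shorter ones and 1.34% and 1.15% of all tiles. The start of the CTCF consensus, CCANNAG, was in 17.8% and 16.8% of them, against 8.12% and 7.35% of shorter ones and 8.89% and 8.6% of tiles. Letters of the upstream element turned up too: GCAGTACC was in 0.851% and 0.786% of these long windows, against 0.105% and 0.0793% of shorter ones. CGTCATCA, which shares CGTCA with the CREB/ATF element, was in 0.595% and 0.705%, against 0.0733% and 0.0992%. The ranking was made on replicate 1, and 77.3% of the replicate 2 members without a motif are shared, so replicate 2 is no independent ranking.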
